A study of Mus musculus with 23 samples.

Results

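The genes described here are 10 members of the Hippo pathway: the coactivators Yap1 and Wwtr1 (the gene of TAZ), the transcription factors Tead1 and Tead2, the kinases Lats1 and Lats2, and the targets Ccn1 (Cyr61), Ccn2 (Ctgf), Ankrd1 and Amotl2. They were chosen by name, and each was found by its Ensembl ID among the 55487 gene IDs counted in every library. The study measured poly(A) RNA of mouse hippocampal cultures with and without a pulling force, in 23 libraries. Cells of C57Bl/6 pups of postnatal day 1 were seeded on the soma side of microfluidic chambers, from which axons grow through channels into a separate compartment. All cultures received magnetic nanoparticles at 5 µg/ml, and so did the controls. In stretched cultures a gradient of 50 T/m acted on the particles from day in vitro 1 to day 6, and in control cultures the gradient was null. Axonal RNA of 5 control and 6 stretched cultures and cell-side RNA of 6 control and 6 stretched cultures was sequenced, here called axon and soma libraries and numbered as in the titles. Axon libraries came from the axonal compartment and soma libraries from the whole cell side of the culture, which holds glia as well as neurons. The labels do not say whether libraries came from separate animals or dissections, so p-values measure the spread between libraries, which may be technical.

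In the Hippo pathway, the kinases MST1 and MST2 activate LATS1 and LATS2, which phosphorylate YAP and TAZ and keep them out of the nucleus. Unphosphorylated YAP and TAZ enter the nucleus, bind TEAD factors and switch on genes such as Ccn1, Ccn2, Ankrd1 and Amotl2. Stretch, stiff substrates and actin tension are known to raise YAP and TAZ activity, largely without a change in their own RNA, and in brain both proteins are known mainly from progenitors, astrocytes and vascular cells.

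TEAD factors bind the MCAT element, CATTCC on one strand and GGAATG on the other. The promoter windows of Wwtr1 and Amotl2, the members whose RNA passed the test of stretch in somata, and of the classical targets Ccn1 and Ankrd1 are printed 5′ to 3′ on the gene's strand, from 250 bases before the transcription start to 50 after it (RefSeq, GRCm38.p6). Capitals mark each match to the element on either strand.
Wwtr1, chr3:57575861-57576160, minus strand: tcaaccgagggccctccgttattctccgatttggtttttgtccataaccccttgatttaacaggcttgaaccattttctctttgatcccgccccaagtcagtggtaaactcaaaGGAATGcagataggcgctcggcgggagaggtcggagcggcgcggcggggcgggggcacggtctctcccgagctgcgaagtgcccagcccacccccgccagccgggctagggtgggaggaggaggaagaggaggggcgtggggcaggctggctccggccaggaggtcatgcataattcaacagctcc
Amotl2, chr9:102717554-102717853, plus strand: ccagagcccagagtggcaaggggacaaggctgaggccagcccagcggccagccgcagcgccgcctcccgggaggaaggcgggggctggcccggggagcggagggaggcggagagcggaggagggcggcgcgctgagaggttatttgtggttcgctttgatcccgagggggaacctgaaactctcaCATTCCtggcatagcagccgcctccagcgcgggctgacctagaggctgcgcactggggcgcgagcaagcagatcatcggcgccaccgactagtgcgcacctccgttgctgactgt
Ccn1, chr3:145649936-145650235, minus strand: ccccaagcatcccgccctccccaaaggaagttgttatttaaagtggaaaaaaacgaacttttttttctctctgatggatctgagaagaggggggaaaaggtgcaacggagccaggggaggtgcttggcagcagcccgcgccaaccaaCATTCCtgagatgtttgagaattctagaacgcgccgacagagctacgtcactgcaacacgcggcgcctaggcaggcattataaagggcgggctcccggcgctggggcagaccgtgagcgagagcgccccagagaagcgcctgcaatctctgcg
Ankrd1, chr19:36119795-36120094, minus strand: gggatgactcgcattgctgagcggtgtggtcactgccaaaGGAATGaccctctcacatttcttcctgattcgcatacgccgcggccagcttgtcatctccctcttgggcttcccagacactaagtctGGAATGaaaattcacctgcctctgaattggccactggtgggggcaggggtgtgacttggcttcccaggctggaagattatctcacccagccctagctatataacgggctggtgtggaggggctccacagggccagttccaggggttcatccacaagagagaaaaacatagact
The match began 136 bases before the start in Wwtr1, 65 in Amotl2 and 103 in Ccn1, and Ankrd1 had matches at 210 and 123. The 8 members with an entry had 10 windows of which 7 held the element, against 14.7% of all 32851 mouse promoters of the same length; both Wwtr1 windows hold the same match. Yap1 and 1 of the 2 Lats2 windows were the others, and Lats1 and Tead2 had none. Tead1 and Ccn2 had no entry. A match describes the letters only.

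Total counts ran from 16369153 to 43048953, so that 3 counts equalled 0.0697 to 0.183 counts per 1000000 (CPM), depending on the library. Axon libraries held counts for 4263 to 10242 genes, and soma libraries for 22452 to 24575. The neuron markers Rbfox3, Map2, Snap25, Syt1, Tubb3 and Nefl were all counted in both compartments, with summed levels of 744 to 2948 CPM in axons and 4398 to 5260 CPM in somata. Every soma library held all 6 genes, and single axon libraries held 3 to 6 of them. The astrocyte list (8 genes, among them Gfap and Aqp4) summed to 4651 to 25629 CPM in axon libraries and 5121 to 14075 CPM in soma libraries, although the labels call the axonal samples pure. An axon library held counts for 4 to 8 of these genes. In control axons against somata, Gfap and Aldoc had log2 fold changes of 0.67 and 0.78, and the others were below 0, with Aqp4 at -3.64. In stretched cultures Gja1 (0.72) and Aldoc (0.16) were above 0 and the others below. No gene of this list passed in either comparison. The progenitor list (6 genes) summed to 1835 to 5399 CPM in axons and 984 to 2256 CPM in somata, with Sox2 at 0 in every axon library and the other 5 genes counted. The endothelial list (6 genes) summed to 0 to 107 CPM in axons and 5.91 to 17.4 CPM in somata, with Cldn5, Cdh5, Kdr and Tek at 0 in every axon library. The fibroblast and mural list (6 genes) summed to 0 to 1373 CPM in axons and 141 to 222 CPM in somata. The Y-linked gene Eif2s3y divided the soma libraries at the widest gap in its level: control soma 1, 2 and 3 with stretched soma 1, 2 and 8 had 24.7 to 28.7 CPM, and the others 5.39 to 13.2 CPM. That gap was 0.90 on the log2 scale and the next one 0.85, the labels give no such division, and each set holds 3 control and 3 stretched libraries.

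**Figure D1:**
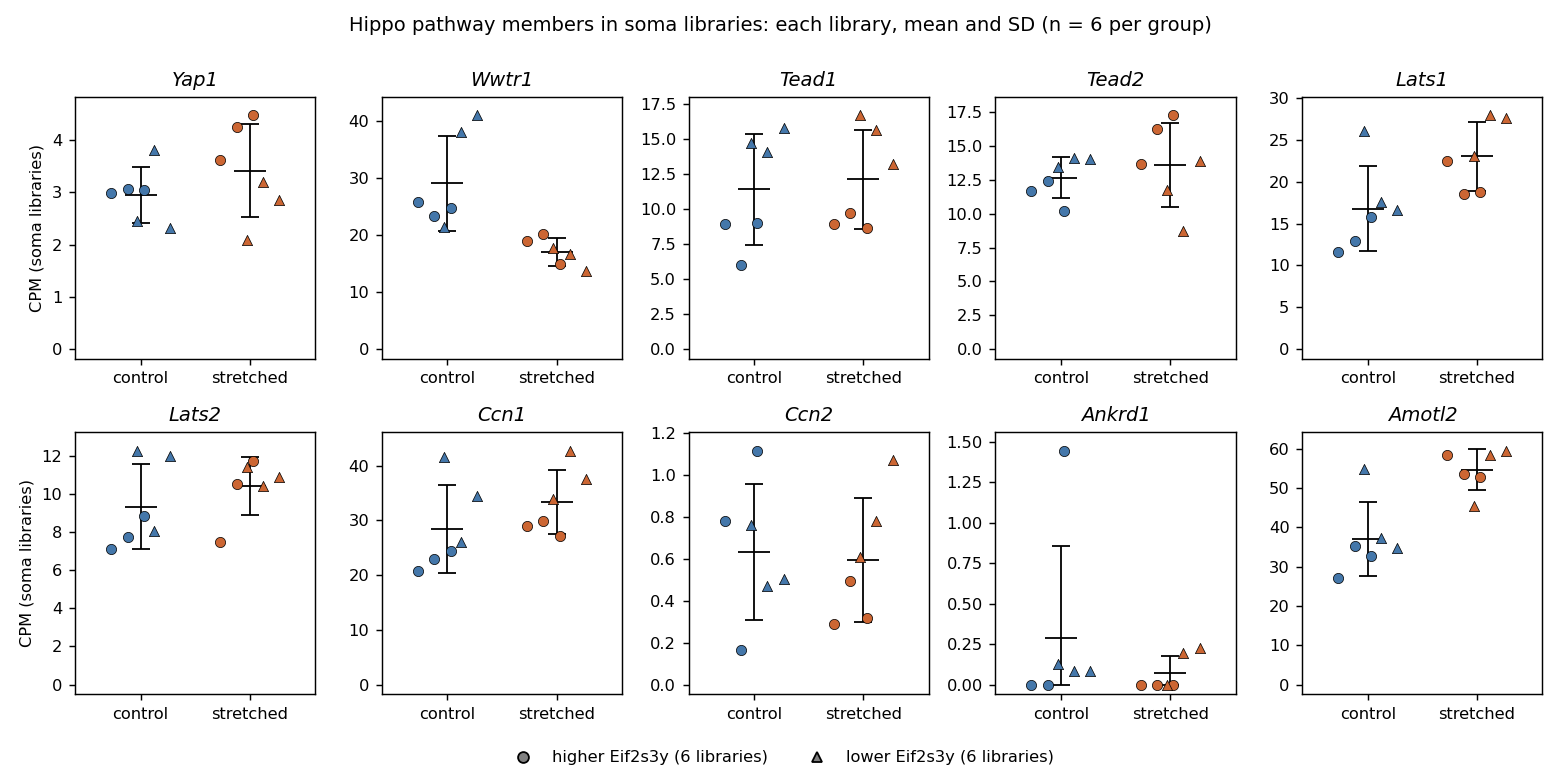
Level of each member in counts per 1000000 (CPM, vertical axis from 0) in the 6 control (blue) and 6 stretched (orange) soma libraries; horizontal marks are means, bars are SDs with the lower arm ended at 0, circles are libraries with higher and triangles with lower Eif2s3y. All stretched libraries lie below all control libraries for Wwtr1, and for Amotl2 the groups meet only through control soma 4 at 54.9 CPM.

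Per kilobase of exon, Ccn1, a secreted matricellular protein, had the highest level of the members in somata, at 15.3 ± 3.57 CPM per kb (SD, n = 12). Amotl2, an angiomotin-like junction protein that binds YAP, followed at 7.29 ± 1.87 CPM per kb, and Wwtr1 at 4.82 ± 1.79. Tead2 (2.74 ± 0.496), Lats1 (2.73 ± 0.751), Lats2 (1.42 ± 0.273) and Tead1 (0.867 ± 0.265) came next on the same scale. The lowest were Yap1 at 0.343 ± 0.0802 CPM per kb, Ccn2 at 0.215 ± 0.104 and Ankrd1, a nuclear ankyrin-repeat protein of muscle and stretched cells, at 0.0624 ± 0.141. Ccn1 lay above Amotl2 in every library, and from Amotl2 down each neighbouring pair in this order overlapped. Wwtr1 thus exceeded Yap1 per length in the soma libraries, with a lowest value of 2.85 against a highest Yap1 value of 0.483 CPM per kb.

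The first question was whether the pull changed these RNAs in the cell-body compartment. Of the 9 members tested 2 passed: Wwtr1 fell and Amotl2 rose. Across all genes 25.1% of 15632 passed (edgeR quasi-likelihood test, Benjamini-Hochberg adjusted p under 0.05), 13.9% lower and 11.2% higher, so the members' share was close to that of all genes. The members' median log2 fold change was 0.12, against -0.03 for all genes tested. With offsets for transcript length and GC content these medians were -0.019 and -0.022. In the libraries of higher Eif2s3y they were 0.34 and 0.0087, and in those of lower Eif2s3y 0.0067 and -0.0042. Fewer cells of a type and less RNA per cell cannot be told apart in these bulk samples.

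Wwtr1 (ENSMUSG00000027803, GRCm38 chr3:57455649-57575910, minus strand) encodes TAZ, the partner of YAP that LATS also marks for degradation. Its level in control somata was 21.3 CPM at the lowest, 25.2 at the median and 40.9 at the highest, and in stretched somata 13.6, 17.1 and 20.1. Every stretched library lay below every control library, and control soma 5 and 6, at 38.1 and 40.9 CPM, stood above the other controls. The means were 29.0 ± 8.31 and 17.0 ± 2.46 CPM (SD, 6 libraries in each group), and Wwtr1 fell with a log2 fold change of -0.81 (SE 0.17, adjusted p = 0.00704). Of all genes tested, 2.27% were lower in stretched somata with no overlap. Among libraries with higher Eif2s3y alone the change was -0.44 (SE 0.15, adjusted p = 0.0485), and among those with lower Eif2s3y -1.10 (SE 0.25, adjusted p = 0.272). The difference between these changes, 0.60 (SE 0.30), had an adjusted p of 0.681.

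Amotl2 (ENSMUSG00000032531, GRCm38 chr9:102716672-102733418, plus strand) is both a target of YAP and a protein that holds YAP at junctions and in the cytoplasm. In control somata it was 27.0 CPM at the lowest, 35.0 at the median and 54.9 at the highest, and in stretched somata 45.4, 55.9 and 59.5. The groups overlapped through 1 library, control soma 4, and the next control library was at 37.3 CPM. The means were 37.0 ± 9.45 and 54.7 ± 5.30 CPM (SD, 6 libraries in each group), and Amotl2 rose with a log2 fold change of 0.52 (SE 0.14, adjusted p = 0.0156). Of all genes tested, 1.84% were higher in stretched somata with no overlap, and Amotl2 was not one of them. Within the libraries of higher Eif2s3y it was 0.80 (SE 0.12, adjusted p = 0.00252), and within those of lower Eif2s3y 0.34 (SE 0.19, adjusted p = 0.355). The difference between the sets, 0.40 (SE 0.24), did not pass (adjusted p = 0.704). With offsets for transcript length and GC content together with the replicate number as a block, Amotl2 no longer passed (log2 fold change 0.46, adjusted p = 0.0596).

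Lats1 (ENSMUSG00000040021, GRCm38 chr10:7681214-7716460, plus strand), a kinase that inhibits YAP and TAZ, had 11.6 to 26.0 CPM in control somata (median 16.2) and 18.5 to 27.9 CPM in stretched somata (median 22.7). Control soma 4 was again the highest control library, and it alone of the controls exceeded the lowest stretched library. The log2 fold change was 0.42 (SE 0.18, adjusted p = 0.0936) and did not pass. Without control soma 4 it was 0.57 with an adjusted p of 0.00722, and with the Eif2s3y set as a covariate 0.43 with an adjusted p of 0.0158. Lats2 (ENSMUSG00000021959, GRCm38 chr14:57689662-57758388, minus strand), its paralog, had 7.14 to 12.3 CPM in control and 7.49 to 11.8 CPM in stretched somata. These ranges overlapped almost wholly, with a log2 fold change of 0.12 (SE 0.16, adjusted p = 0.631). Lats2 shares 42.4% of its exon bases with Gm49361 on the same strand, so its counts are uncertain.

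Yap1 (ENSMUSG00000053110, GRCm38 chr9:7931999-8004596, minus strand), the coactivator that gives the YAP targets their name, had 2.32 to 3.81 CPM in control somata (median 3.02) and 2.09 to 4.47 CPM in stretched somata (median 3.41). The control range lay inside the stretched one, and the log2 fold change of 0.17 (SE 0.21, adjusted p = 0.588) did not pass. Tead1 (ENSMUSG00000055320, GRCm38 chr7:112679318-112906807, plus strand) and Tead2 (ENSMUSG00000030796, GRCm38 chr7:45215753-45233644, plus strand) encode DNA-binding partners of YAP and TAZ. Tead1 was 5.99 to 15.8 CPM in control and 8.63 to 16.7 CPM in stretched somata (log2 fold change 0.05, SE 0.24, adjusted p = 0.892). Tead2 was 10.2 to 14.1 CPM in control and 8.72 to 17.3 CPM in stretched somata (log2 fold change 0.06, SE 0.16, adjusted p = 0.805). For Tead2 the stretched libraries spread over a wider range on both sides of the controls.

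The secreted targets did not pass. Ccn1 (ENSMUSG00000028195, GRCm38 chr3:145646976-145649981, minus strand) was 20.8 CPM at the lowest, 25.2 at the median and 41.7 at the highest in control somata, and 27.2, 31.9 and 42.7 in stretched somata. Of the controls, soma 4 and 6 lay inside the stretched range and the other 4 below it, and the log2 fold change was 0.20 (SE 0.17, adjusted p = 0.411). Ccn2 (ENSMUSG00000019997, GRCm38 chr10:24595442-24598683, plus strand), a connective tissue growth factor, stayed near 1 CPM or below: 0.165 to 1.117 CPM in control and 0.291 to 1.07 CPM in stretched somata, from 4 to 34 counts a library. Its log2 fold change was -0.13 with a wide error (SE 0.43, adjusted p = 0.845), and 23.2% of its exon bases overlap Gm15270 on the other strand. Ankrd1 (ENSMUSG00000024803, GRCm38 chr19:36111961-36120099, minus strand) was too low to test. It had a count in 4 of 6 control and 2 of 6 stretched soma libraries, and only control soma 3, at 1.44 CPM from 44 counts, exceeded 0.223 CPM.

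Marker lists moved beside these results in part. Progenitor markers summed to 1187 to 2256 CPM in control and 984 to 1650 CPM in stretched somata, with Nes and Vim lower (2 of 6 genes). None of the 8 astrocyte genes passed, and their sums were 5121 to 14075 CPM in control and 5354 to 11400 CPM in stretched somata. Of the other lists, Rbfox3 and Tubb3 among neuron markers, the microglial gene C1qa and the fibroblast gene Dcn were lower, and Syt1 was higher. The microglia list summed to 22.7 to 46.6 CPM in control and 15.4 to 22.7 CPM in stretched somata. These ranges nearly met, with control soma 6 at 22.706 and stretched soma 8 at 22.686 CPM, and C1qa was the only 1 of its 6 genes that passed. The part of these shifts in the results for Wwtr1 and Amotl2 was not tested.

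Around the members, the upstream kinases and scaffolds were the list with the most changes. Of its 13 genes tested (14 listed), 5 rose and 1 fell (11.2% and 13.9% of all genes did), with a median log2 fold change of 0.23. The genes that rose include activators of the LATS kinases: Taok1, a kinase that activates MST kinases, rose by 0.51 (SE 0.13, adjusted p = 0.0124), Stk3, which encodes MST2, by 0.41 (SE 0.11, adjusted p = 0.0184), and Nf2, the scaffold merlin, by 0.40 (SE 0.10, adjusted p = 0.0129). Nf2 was 147 to 229 CPM in control and 225 to 280 CPM in stretched somata, so that the groups met only at the edge. Taok3, a relative of Taok1, fell by 0.37 on the log2 scale (SE 0.09, adjusted p = 0.0130). Stk4, which encodes MST1, had a log2 fold change of -0.27 (adjusted p = 0.0980). With 1 library left out 3 to 6 genes of this list rose, and 3 did without control soma 1, 2 or 6 or stretched soma 1, 5 or 6. With offsets for transcript length and GC content 1 gene of this list was higher and 3 were lower.

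Among 14 of 15 YAP regulators and partners tested, 1 rose and 2 fell, with a median log2 fold change of 0.11. The giant cadherin Fat4 rose from 60.6 ± 21.8 to 90.5 ± 14.2 CPM (log2 fold change 0.54, adjusted p = 0.0449), and no gene of this list was called higher when any of control soma 1, 2, 3, 5 or 6 or stretched soma 1, 5 or 8 was left out. Vgll4, which competes with YAP for TEAD factors, fell from 59.3 ± 11.6 to 40.4 ± 4.60 CPM (log2 fold change -0.59, adjusted p = 0.00836). Csnk1e, a casein kinase that acts on YAP after LATS, fell from 50.7 ± 5.49 to 38.4 ± 4.82 CPM (log2 fold change -0.44, adjusted p = 0.0110).

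Of 17 further genes of a conserved YAP target signature 16 were tested, 2 rose and 1 fell, and the median log2 fold change was 0.04. Igfbp3, a secreted binder of insulin-like growth factors, rose from 44.9 ± 14.95 to 82.4 ± 9.41 CPM, with control values up to 65.7 and stretched values from 69.1 CPM. Its log2 fold change was 0.84 (SE 0.17, adjusted p = 0.00650). Rbms3, an RNA-binding protein, rose by 0.42 (adjusted p = 0.0448), and Fjx1, a relative of the fly kinase Four-jointed that acts on Fat and Dachsous cadherins, fell from 20.8 ± 10.3 to 11.4 ± 2.32 CPM (log2 fold change -0.91, adjusted p = 0.0217). Thus 3 of 16 further targets and 1 of the 3 member targets tested passed, beside 25.1% of all genes. With 1 library left out, 2 further targets rose only without control soma 4 or stretched soma 4, and otherwise 1 rose. With the replicate number as a block 1 rose as well.

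**Figure D2:**
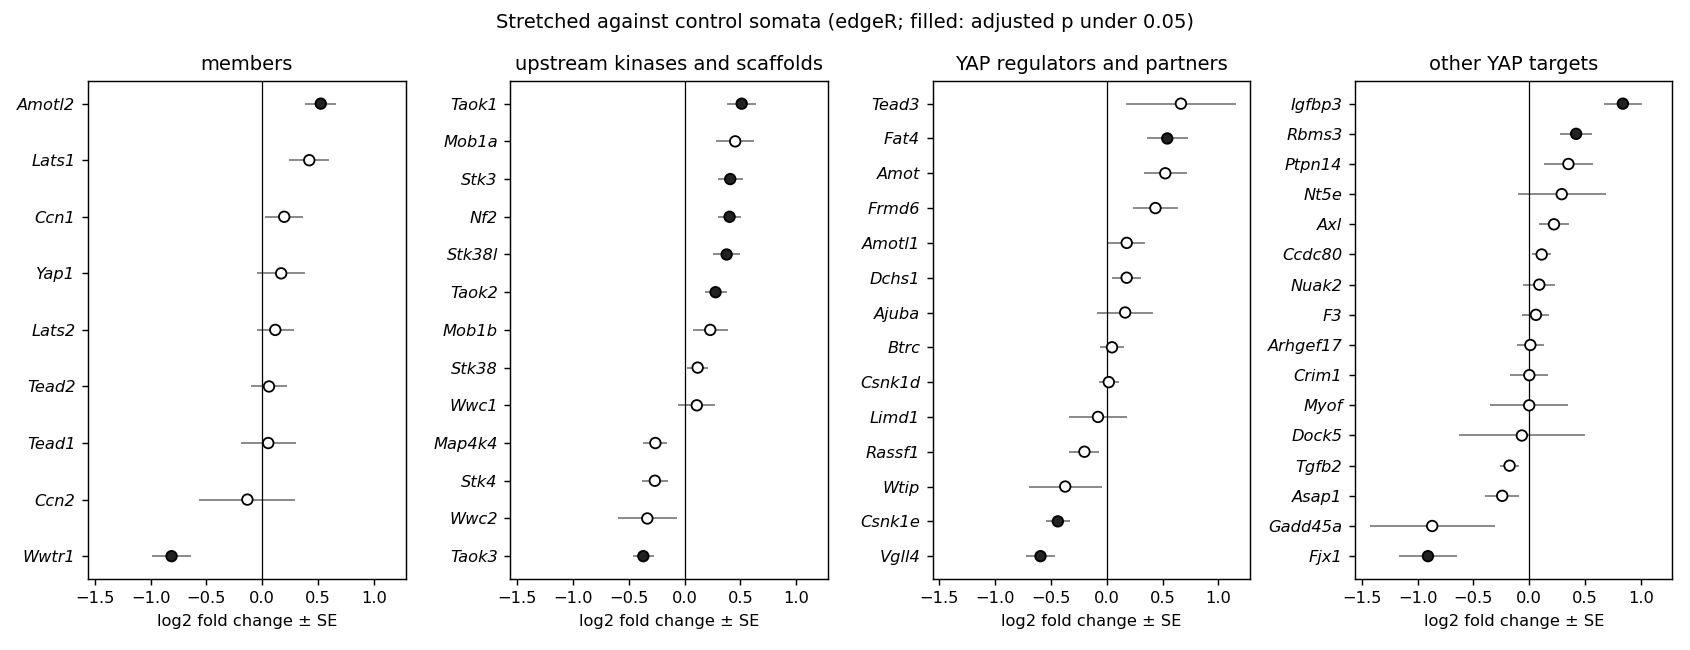
Log2 fold change of stretched against control somata (horizontal axis, edgeR, bars are standard errors) for the members and 3 lists of pathway genes, sorted within each panel; filled points have an adjusted p under 0.05. Among members Amotl2 (0.52) and Wwtr1 (-0.81) are filled, and among upstream kinases and scaffolds 5 filled genes lie to the right of 0 and 1 to the left.

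The soma libraries were also compared between the Eif2s3y sets. Comparing the sets with stretch in the model, 13.3% of 15632 genes passed, and 3 of the 9 members tested did, all lower in the libraries with higher Eif2s3y (6.17% of all genes were). Tead1 was 5.99 to 9.69 CPM in the 6 libraries with higher Eif2s3y and 13.2 to 16.7 CPM in the 6 with lower Eif2s3y. These ranges did not overlap, as for 5.05% of all genes and 1.69% in that direction, and the log2 difference was -0.83 (SE 0.13, edgeR adjusted p = 0.000334). Ccn1 differed by -0.51 (SE 0.11, adjusted p = 0.00547) and Lats1 by -0.50 (SE 0.13, adjusted p = 0.0157). The astrocyte list summed to 10726 to 14075 CPM in the set with higher Eif2s3y and 5121 to 6310 CPM in the other, with no overlap, and its part in the differences of Tead1, Ccn1 and Lats1 was not tested. Wwtr1 and Amotl2 did not pass this comparison (adjusted p = 0.595 and 0.284). The change with stretch differed between the sets for 0 of 15632 genes (edgeR, 1169 at an unadjusted p under 0.05). Among members Tead2 came nearest: its log2 fold change was 0.71 higher in the set with higher Eif2s3y (SE 0.26, edgeR adjusted p = 0.629).

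Across the 12 soma libraries, Lats1 varied with Ccn1 (Pearson r = 0.89) and with Amotl2 (r = 0.87), and Wwtr1 ran opposite to Amotl2 (r = -0.69). This last value pools control and stretched libraries, so the opposite calls of Wwtr1 and Amotl2 with stretch enter it. It is no separate result, and no r within a group was computed. Among 9525 candidate genes averaging 10 CPM or more in the 12 soma libraries, the genes most like Wwtr1 were Yipf3 (r = 0.967), the nuclear lamina gene Lmna (r = 0.959) and the actin-binding Tagln2 (r = 0.948). The closest to Amotl2 were Zfp788 (r = 0.978), Mettl4 (r = 0.972) and the non-muscle myosin gene Myh10 (r = 0.970), and to Lats1 Sema5a (r = 0.987), Yme1l1 (r = 0.980) and Mbd5 (r = 0.975). Ccn1 was most like Mast4 (r = 0.962), Ranbp2 (r = 0.958) and Pcsk1 (r = 0.955), and Tead1 most like Synj2 (r = 0.958), Arfgap2 (r = 0.952) and Stard4 (r = 0.952). Lats2 was closest to Rbm15b (r = 0.952), Ulk1 (r = 0.930) and Rapgef1 (r = 0.924), and Tead2 to Pxk (r = 0.926), H1f0 (r = 0.907) and Fbxl20 (r = 0.888). These values describe libraries that share their groups and depth differences, and they were picked as the highest of many.

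**Figure D3:**
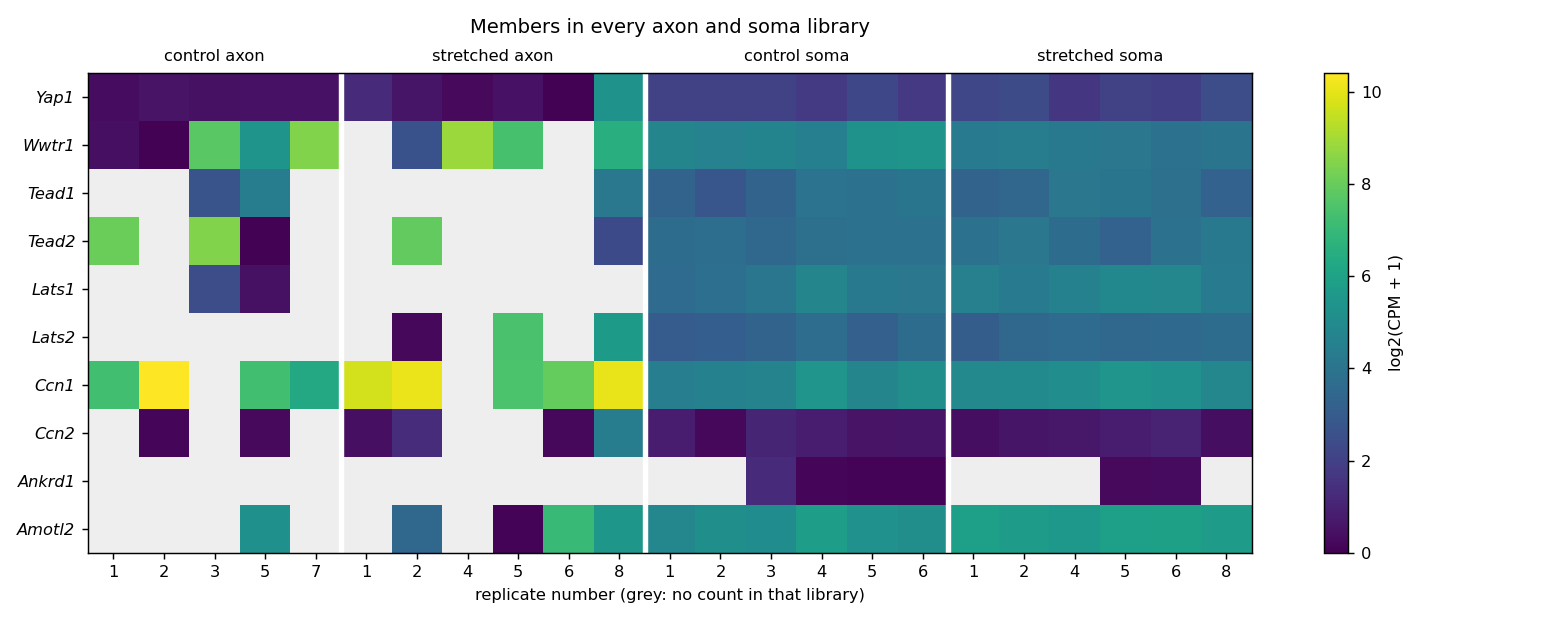
Level of each member as log2(CPM + 1) (colour) in every library (columns, by group and replicate number); grey cells have no count. Soma columns are filled for all members but Ankrd1, whereas axon columns are patchy: Yap1 is low in 10 axon libraries and at 38.3 CPM in stretched axon 8, and Ccn1 is bright in 9 of 11.

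The next question was which members appeared in axonal RNA. Of 110 pairs of a member and an axon library, 53 (48.2%) had at least 1 count and 46 had more than 3. The members lay at 0.180 to 45.8 CPM in somata. Over all genes, 8.01% of such pairs had a count at 0.05 to 1 CPM in somata, rising to 38.7% at 20 to 50 CPM. Control axon 5 and stretched axon 8 held 8 of the 10 members each and the most genes (10242 and 10065), while the other axon libraries held 2 to 7 members and 4263 to 7012 genes. The part of the number of genes counted per library in the values of members in axons was not tested.

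Yap1 was counted in all 11 axon libraries, at 0.278 to 0.449 CPM in control axons, from 5 to 19 counts. In stretched axons it had 1.37, 0.489, 0.209, 0.421, 0.0521 and 38.3 CPM in replicates 1, 2, 4, 5, 6 and 8. Of the 11 values, 10 were below the lowest soma library (2.09 CPM), and stretched axon 8, with 757 counts, was above the highest. Of 2828 genes at 1 to 5 CPM in somata, 1.94% had a count in all axon libraries, and the median gene had one in 1 library. Wwtr1 was present in 9 axon libraries, at 0.0499 to 351 CPM in the 5 control libraries and at 5.13 to 461 CPM in 4 stretched ones. Control axon 5, at 40.4 CPM, lay inside the range of the soma libraries, 5 others lay above it, 3 lay below it, and stretched axon 1 and 6 had 0 counts.

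Of the TEAD and LATS genes, Tead2 was counted in more axon libraries than the median gene of its soma range, Tead1 in as many and Lats1 in fewer. Tead1 had counts in 3, as did the median gene at 10 to 20 CPM in somata (5.47 and 20.2 CPM in control axon 3 and 5, and 17.1 CPM in stretched axon 8). Tead2 had counts in 5, of which 3 were well above the somata (269 and 351 CPM in control axon 1 and 3, and 239 CPM in stretched axon 2). Lats1, of the same soma range, was found in control axon 3 and 5 alone, at 4.46 and 0.395 CPM. Lats2 was found in stretched axon 2, 5 and 8 alone, at 0.183, 172 and 50.3 CPM. The median gene was found in 2 libraries at 5 to 10 CPM in somata and in 3 at 10 to 20 CPM. Lats2, at 9.89 CPM in somata, lay at the edge between these ranges, so its 3 libraries show no clear excess. The 2 kinases were counted together in no axon library and in all 12 soma libraries. Lats1 had counts in only 2 and Lats2 in only 3 of the 11 axon libraries, and whether they avoided each other was not tested.

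Of the targets, Ccn1 was the most abundant member in axon RNA. It had 151, 1363, 0, 152 and 76.4 CPM in control axon 1, 2, 3, 5 and 7, and 837, 1110, 0, 176, 247 and 1086 CPM in stretched axon 1, 2, 4, 5, 6 and 8. All 9 libraries that had Ccn1 lay above the highest soma library (42.7 CPM), and the 2 others had no count. Of 9529 genes with at least 10 CPM in somata, 1.81% had as many axon libraries above the highest soma library. The fibroblast and mural list summed to 102 CPM in control axon 3 and 0 CPM in stretched axon 4, the libraries without Ccn1, and to 0 CPM in stretched axon 5, which had 176 CPM of Ccn1. Its sums in the other axon libraries were 106 to 1373 CPM, and its part in the Ccn1 values was not tested. Ccn2 was counted in 6 axon libraries, in 5 of them at 0.0998 to 1.53 CPM and in stretched axon 8 at 19.6 CPM. Amotl2 was counted in 5, from 0.0701 CPM (2 counts) to 133 CPM, and Ankrd1 in none.

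**Figure D4:**
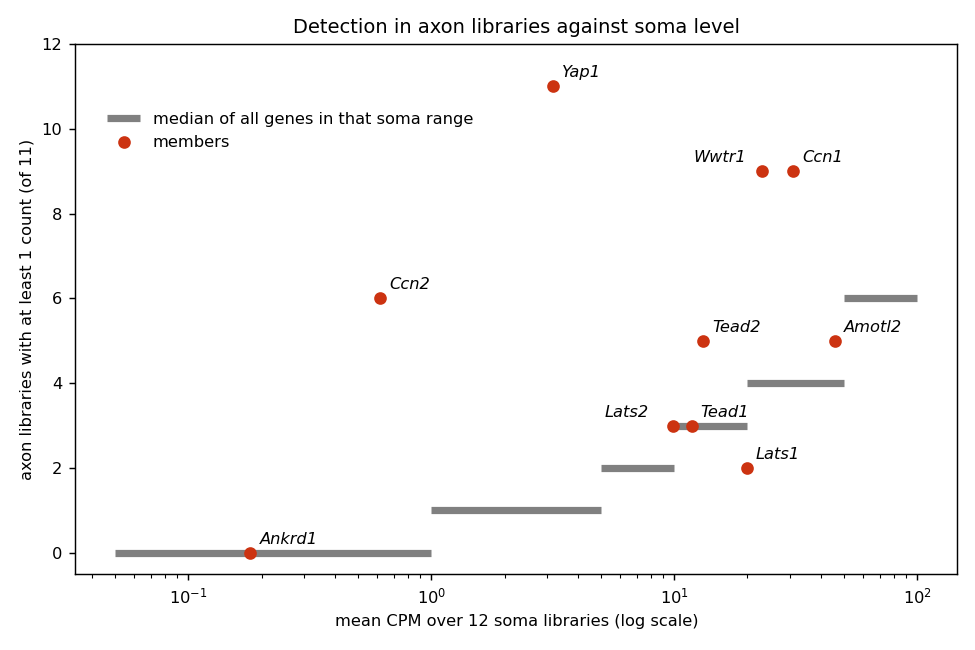
Number of the 11 axon libraries with at least 1 count of each member (vertical axis) against its mean level in the 12 soma libraries (CPM, log scale); grey bars give the median over all genes of each soma range. Yap1 (11), Ccn1 and Wwtr1 (9 each), Ccn2 (6), Tead2 and Amotl2 (5 each) and Lats2 (3) lie above their bars, Tead1 (3) and Ankrd1 (0) at them and Lats1 (2) below. Lats2 (9.89 CPM) and Amotl2 (45.8 CPM) lie near the upper edge of their ranges, and the next bars stand at 3 and 6.

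Axons of stretched and control cultures were then compared. With edgeR 0 of 4947 passed (0% of genes), although for 46 the unadjusted p was under 0.05, and DESeq2 called 18 genes and limma voom 9. Of the members only Yap1, Wwtr1 and Ccn1 passed the filter on low counts. Yap1 had a log2 fold change of 4.20 (SE 1.75, unadjusted p = 0.0303, adjusted p = 0.99984), which came from stretched axon 8; the other 5 stretched values, 0.0521 to 1.37 CPM, surrounded the control range of 0.278 to 0.449 CPM. Stretched axon 8 also held 312 CPM of microglia (4 genes), 107 CPM of endothelial (Flt1 alone) and 1065 CPM of fibroblast and mural markers. The other stretched axon libraries had at most 44.0, 9.53 and 1373 CPM, and the control axon libraries at most 363, 11.1 and 756 CPM. Control axon 2, with the 363 CPM of microglia markers (1 gene), had Yap1 at 0.449 CPM, Tead1 at 0 and Ccn2 at 0.0998 CPM. The part of these markers in the Yap1, Tead1 and Ccn2 values of stretched axon 8 was not tested. Without stretched axon 8 Yap1 was not tested. Ccn1 had a log2 fold change of 0.75 (SE 1.67) and Wwtr1 one of 0.07 (SE 2.38), both with an adjusted p of 0.99984. For both, the error was larger than the change itself. In the pathway lists 9 kinases and scaffolds, 5 regulators and 5 further targets were tested, and none passed.

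Last, axons were compared with somata of the same condition. In control cultures 35.3% of 14728 genes passed, 34.4% lower and 0.856% higher in axons, and 3 of 9 members tested passed, all lower. The median log2 fold change of all genes was -1.40 (-1.27 with scaling by total counts alone), and changes are to be read against it. Yap1 averaged 0.399 ± 0.0702 CPM over the 5 axon libraries and 2.94 ± 0.532 CPM over the 6 soma libraries (SD). Its log2 fold change was -3.11 (SE 0.23, edgeR adjusted p = 5.9e-06). Lats2 had no count in any of the 5 control axon libraries and 7.14 to 12.3 CPM in control somata (edgeR adjusted p = 7.5e-06). Its control soma mean was 73.6-fold above a floor of 3 counts per library, which does not cover the loss of a gene from a whole library. For genes at 5 to 10 CPM in somata, 18.9% of pairs of a gene and an axon library had a count. Lats2, at 9.89 CPM over all somata, lay at the upper edge of that range, and at 10 to 20 CPM the share was 27.0%. Ccn2 was lower by the test (log2 fold change -3.35, SE 0.86, adjusted p = 0.00834), on 2 counts in control axon 2 and 8 in control axon 5. With the replicate block Yap1 (adjusted p = 0.104) and Ccn2 (adjusted p = 0.116) no longer passed, and Ccn2 also missed the threshold by limma voom (adjusted p = 0.248) and with all 4 groups in 1 fit (adjusted p = 0.0715). Lats1 had a log2 fold change of -4.28 (SE 1.83, adjusted p = 0.1096), and without control axon 3, 1 of the 2 libraries that had it, -7.32 (adjusted p = 0.00570). Among the alternatives run, Amotl2 passed without control axon 5, the 1 control axon library that had it, and by limma voom.

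Ccn1 was the member with the largest excess in axons, with control means of 349 ± 571 CPM in 5 axon and 28.4 ± 8.02 CPM in 6 soma libraries (SD). This difference, 3.24 on the log2 scale (SE 1.48, adjusted p = 0.138), did not pass. Without control axon 3, which had no count, it was 3.56 (adjusted p = 0.00359), without control axon 2, the highest library, 1.53 (adjusted p = 0.533), by DESeq2 3.42 (adjusted p = 0.0107) and by limma voom -0.31 (adjusted p = 0.875). In stretched cultures it was 576 ± 493 CPM in axons and 33.4 ± 5.90 CPM in somata (SD, 6 libraries each), or 3.62 on the log2 scale (SE 1.36, adjusted p = 0.0722). Without stretched axon 4, which had no count, it was 3.88 (adjusted p = 8.3e-05), by DESeq2 3.76 (adjusted p = 0.000902), and with scaling by total counts 4.11 (adjusted p = 0.0411). Each axon library that had Ccn1 therefore exceeded every soma library of its condition, and in each condition the call changed when the library at 0 was left out.

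In stretched cultures 29.3% of 14466 genes passed, 28.4% lower and 0.843% higher in axons, around a median log2 fold change of -1.13 (-0.73 with total counts). Of the 9 members tested 1 passed: Lats1 had no count in the 6 stretched axon libraries and 18.5 to 27.9 CPM in stretched somata (edgeR adjusted p = 2.0e-05). Its stretched soma mean was 165-fold above the floor of 3 counts, with the same limit. For genes at a mean of 10 to 20 CPM over all somata, 27.0% of pairs of a gene and an axon library had a count. Lats1, at 19.9 CPM, lay at the upper edge of that range, and at 20 to 50 CPM the share was 38.7%. Yap1 had a log2 fold change of 0.74 (SE 1.38, adjusted p = 0.896) with stretched axon 8 and -3.37 (adjusted p = 0.000518) without it. Tead1 was -2.32 (SE 2.13, adjusted p = 0.649), and without stretched axon 8, its only stretched axon library, it passed as lower. Whether the axon to soma difference changed with stretch was not tested.

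Among the pathway lists, all calls between axons and somata were lower in axons, as were 5070 of the 5196 calls over all genes in control and 4112 of 4234 in stretched cultures. In control cultures 2 of 13 kinases and scaffolds, 2 of 14 regulators and 6 of 16 further targets passed, where 34.4% of all genes were lower. With 1 library left out these counts were 2 to 3, 1 to 6 and 4 to 9, the highest without control axon 5, and by limma voom 7, 11 and 10. Wwc2, a KIBRA relative, had no count in control axons and 4.18 to 11.2 CPM in control somata, and Ajuba, a LIM protein that binds LATS, none against 2.53 to 4.55 CPM. Stk4 was at most 0.0998 CPM in control axons, against 21.6 to 31.6 CPM in somata. Fjx1 and Myof, a membrane repair protein, had no count in control axons, against 11.1 to 39.5 CPM and 2.92 to 12.3 CPM in control somata, and Axl, a receptor tyrosine kinase, was at most 0.232 CPM in axons and at least 30.7 CPM in somata. In stretched cultures 0 of 13 kinases and scaffolds, 2 of 13 regulators and 2 of 15 further targets passed, where 28.4% of all genes were lower. With 1 library left out these were 0 to 1, 2 to 5 and 2 to 6, the highest without stretched axon 8, and by limma voom 8, 9 and 11. Vgll4 had a count in 1 of 6 stretched axon libraries, at 0.885 CPM, against 34.7 to 46.4 CPM in stretched somata, and Myof had none against 5.28 to 8.26 CPM.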

How the data were processed

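RNA-seq libraries were compared from the deposited count tables: the authors gave integer counts of reads for each Ensembl ID. Per the submitters' processing notes, the genome build was mm10, and FastQC 0.11.9, MultiQC 1.12, fastp 0.20.1, STAR 2.7.08a and HTSeq 0.13.5 were used. The notes give no role for each tool, and the annotation, strand setting and use of unique molecular identifiers are not given in the sources used here. Without a strand setting, overlapping genes cannot be told apart. Reads outside genes or not uniquely assigned, 14.2% to 24.4% of a library's reads in the tables, were left out. Amplified reads are not independent molecules, so floors of 3 counts cover counting error only.

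Symbols came from a table of gene names (55141 of 55487 IDs), positions and exon lengths from GENCODE M21 (GRCm38), and promoters from RefSeq. Each comparison was fitted on its own libraries with edgeR 4.0.16 in R 4.3.3 (filterByExpr, TMM, robust quasi-likelihood F test, Benjamini-Hochberg over all genes tested, threshold 0.05). CPM are counts per 1000000 counts in genes. The fits were tested on simulated data drawn from the negative binomial model that they assume. That test does not show how the fits behave where axon values depart from this model. DESeq2 1.42.0, limma 3.58.1, other scalings, no filter, a replicate block, all groups in 1 fit, each library left out and the Eif2s3y sets were alternatives. The sets as subsets, their difference in stretch, and offsets for transcript length and GC content (mgcv 1.9.3) were added after the data were seen.

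All members were named. From 3 pathway lists, up to 3 genes of highest and 3 of lowest log2 fold change were named per comparison, among those with an adjusted p under 0.05 and a mean of at least 1 CPM, and other list genes were chosen after their values were seen. Genes like a member are the 3 with the highest Pearson r of log2(TMM-normalized CPM + 1) over soma libraries, for members with at least 5 CPM. Members and lists were chosen with earlier results of these data known.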

Additional observations from a re-analysis of the deposited data

Results flagged for a closer look

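A single library far from the others could be looked for in 36 groups of a member's values. Such a library was found in 14 groups, 11 of them in axons and 3 in somata. The check is set to flag about 1 in 20 groups of normally distributed values. In some axon groups only 1 library had a count, as for Tead1 in stretched axons and Amotl2 in control axons. Such a group is flagged whatever the level of that library, so the number flagged cannot be compared with that rate. In axons the library was the highest of its group each time. These were Yap1 at 38.3 CPM, Tead1 at 17.1 CPM and Ccn2 at 19.6 CPM in stretched axon 8, Wwtr1 at 461 CPM in stretched axon 4, Tead2 at 239 CPM in stretched axon 2, Lats2 at 172 CPM in stretched axon 5 and Amotl2 at 133 CPM in stretched axon 6. In control axons they were Tead1 at 20.2 CPM and Amotl2 at 36.2 CPM in replicate 5, Lats1 at 4.46 CPM in replicate 3 and Ccn1 at 1363 CPM in replicate 2. In somata they were Amotl2 at 54.9 CPM in control soma 4, Ankrd1 at 1.44 CPM in control soma 3 and Lats2 at 7.49 CPM, the lowest of its group, in stretched soma 1.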

How the results depend on the processing

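The fall of Wwtr1 and the rise of Amotl2 in somata kept their direction under all 25 alternatives each, with log2 fold changes of -1.10 to -0.44 and 0.34 to 0.80; they missed the threshold in the fit of all 4 groups and in the low-Eif2s3y libraries, and Amotl2 also with offsets and block. Genes and members called in somata were 0 and 0 with all 4 groups in 1 fit and with the low-Eif2s3y libraries alone (edgeR, 262 and 2739 genes at an unadjusted p under 0.05), 2467 genes with offsets, and 2029 genes and 1 member with offsets and block. Leaving out 1 library each gave 2666 to 6072 genes and 2 to 3 members, the highest without control soma 4. In axons, DESeq2 called 18 genes, voom 9 and the fit of all groups 3870 with 4 members (Yap1, Lats1, Lats2 and Ccn2). Control axons against somata gave 10714 genes without a filter, 9912 by voom and 4542 to 8151 with 1 library left out (the highest without control axon 5), and members called were 5 by DESeq2, 1 with the block and 2 to 5 with 1 left out. Stretched axons against somata gave 10931 genes without a filter, 10203 by voom, 7687 with the block and 4174 to 6499 with 1 left out (the highest without stretched axon 8), and members called were 2 with total counts, DESeq2 or the block, 5 by voom and 1 to 3 with 1 left out. The causes were not tested.

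The labels do not say whether replicate numbers pair libraries, and the values did not settle it. Correlations of deviations between same-numbered libraries were -0.00094 to 0.396 in somata (4 of 5 pairs above 0.1). They were -0.020 to 0.084 in the other comparisons. A library correlated best with its own number in 2 of 5 pairs in somata and 1 of 3 in axons. Between axons and somata this held for 3 of 4 pairs in control and 3 of 6 in stretched cultures. Each number shared by both soma groups lay in the same Eif2s3y set in both. With the replicate block 3209, 0, 5287 and 7687 genes were called in somata, axons, control and stretched cultures, and 2, 0, 1 (Lats2) and 2 members.

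Members that missed the threshold in a comparison changed sign there under some settings. In somata, Yap1 was -0.10 in the low-Eif2s3y libraries, -0.0788 with offsets and -0.17 with offsets and block. Tead1 was -0.00024 by voom, -0.17 with offsets, -0.13 with offsets and block and -0.0778 to 0.17 with 1 library left out. Tead2 was -0.10 with the block, -0.30 in the low-Eif2s3y libraries, -0.0252 with offsets and block and -0.0182 to 0.16 with 1 left out. Lats2 was -0.00883, -0.0187 and -0.0656 in the low-Eif2s3y libraries, with offsets, and with offsets and block. Ccn2 was 0.27 with the block, 0.47 in the low-Eif2s3y libraries, 0.38 with offsets and block and -0.39 to 0.11 with 1 left out. In axons, Wwtr1 was -0.43 by voom, -0.00066 with all groups and -1.06 to 0.93 with 1 left out. In control axons against somata, voom and the block gave -2.21 and -3.21 for Wwtr1 and -2.84 and -2.01 for Tead2, and voom -0.31 for Ccn1. In stretched cultures they gave -3.17 and -3.09 for Yap1, -2.10 and -0.68 for Wwtr1, -6.47 and -9.07 for Tead2, -4.92 and -7.22 for Lats2, and -1.56 and -1.84 for Ccn2. With 1 library left out these were -3.37 to 1.00 for Yap1 (lowest without stretched axon 8), -4.34 to 1.31 for Tead2 (without stretched axon 2), -0.32 to 1.71 for Lats2 (without stretched axon 5) and -1.23 to 2.59 for Ccn2 (without stretched axon 8). Detection of members in axons was 52 of 110 with libraries downsampled to 1 total.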
